A study of Mus musculus with 6 samples.

Results

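The genes described here are 10 genes of the DNA replication fork and of its licensing, Pcna, Gins2, Lig1, Pold1, Rpa2, Mcm2, Mcm6, Mcm10, Rfc2 and E2f1, measured in cultured mouse embryonic fibroblasts. They were found by name: 21 probes carried 1 of these symbols alone in the probe annotation, of 10653 probes with 1 gene symbol and 45281 probes on each array. The named probes stand for 7606 genes. Fibroblasts labelled as knockout for CypD (3 arrays, A, B and C) were compared with wild-type fibroblasts (3 arrays, A, B and C). CypD is cyclophilin D, a peptidyl-prolyl isomerase of the mitochondrial matrix encoded by Ppif. Per the labels, both groups had a C57BL/6 background and came from E13.5 embryos grown out in culture, and no treatment is named. Whether A, B and C were separate embryos, litters or cultures is not in the labels, so each p-value reflects array-to-array spread that may be technical. The series concerns cell cycle progression and chemokine-directed motility, per its title.

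Before S phase, the MCM hexamer is loaded onto replication origins, which licenses them. In S phase it is activated by Cdc45 and the GINS complex to unwind the DNA, RPA coats the exposed strands, and the clamp loader RFC places the PCNA ring that holds DNA polymerase delta on its template. DNA ligase 1 then seals the fragments of the lagging strand. Many of these genes are targets of E2F transcription factors, which are released when RB proteins are phosphorylated late in G1, and their RNA is abundant in dividing fibroblasts. In RNA from whole cultures, more cells in S phase and more RNA per cell cannot be told apart.

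Of the 10 genes, 8 had a window around an annotated start in the RefSeq promoter table (build GRCm38.p6). Each window ran from 250 bases before that start to 50 after it. The only E2f1 window, chr2:154569377-154569676 (minus strand), lay inside the gene, which spans bases 154559400 to 154569892. The sequence around the outer start of E2f1 was therefore not searched. The windows were searched on both strands for the E2F words TTTCCCGC, TTTCGCGC, TTTGCCGC and TTTGGCGC. Mcm6, Lig1 and Pold1 held such a word, and their windows are shown 5′ to 3′ on the strand of the gene, with the words in capitals. They lie at chr1:128359656-128359955 (minus strand, Mcm6), chr7:13278576-13278875 (plus strand, 1 of 3 Lig1 windows) and chr7:44548766-44549065 (minus strand, Pold1). This Lig1 window lies inside the gene, which begins at base 13277175.
Mcm6: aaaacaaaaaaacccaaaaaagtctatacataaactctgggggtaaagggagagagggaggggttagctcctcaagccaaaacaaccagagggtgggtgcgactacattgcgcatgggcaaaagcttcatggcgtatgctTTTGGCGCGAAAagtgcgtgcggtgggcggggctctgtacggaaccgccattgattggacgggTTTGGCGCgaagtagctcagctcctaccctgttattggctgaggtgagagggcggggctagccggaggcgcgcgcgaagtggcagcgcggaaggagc
Lig1: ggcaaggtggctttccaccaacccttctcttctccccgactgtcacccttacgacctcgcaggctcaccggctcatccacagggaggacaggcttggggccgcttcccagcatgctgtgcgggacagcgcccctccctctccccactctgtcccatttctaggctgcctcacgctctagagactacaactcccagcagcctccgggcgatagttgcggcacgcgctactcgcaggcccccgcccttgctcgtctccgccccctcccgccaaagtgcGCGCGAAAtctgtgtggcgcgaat
Pold1: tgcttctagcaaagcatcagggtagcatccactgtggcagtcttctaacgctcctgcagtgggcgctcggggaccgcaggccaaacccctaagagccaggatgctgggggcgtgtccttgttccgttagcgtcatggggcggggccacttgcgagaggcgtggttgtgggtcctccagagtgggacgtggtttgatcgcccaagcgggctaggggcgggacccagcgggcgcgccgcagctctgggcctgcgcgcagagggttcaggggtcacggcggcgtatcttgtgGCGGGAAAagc
The Mcm6 window held 3 words, of which the first 2 overlap on opposite strands. The Lig1 and Pold1 windows held 1 word each. A word was present in 3 of the 8 genes and in 25 of 65 other DNA replication genes with a window. Such a word was present in 0 of 14 genes of deoxynucleotide enzymes with a window, and in 704 of 27025 genes in all (2.6%). Counted by window, 3 of the 10 windows of the 8 genes held one, against 744 of 32851 windows in all (2.26%). The shorter CCAAT box, which did not overlap an E2F word in any of these windows, was present in 5 of the 8 genes (Mcm2, Mcm6, Mcm10, Pcna and Rpa2), against 41.1% of all genes and 37.4% of all windows. These matches are a description of the letters only.

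Levels are given as normalized log2 intensities, and a difference as a log2 fold change of CypD knockout over wild type, with its standard error after ±. A probe was called changed at a limma adjusted p under 0.05 over all 27168 probes tested. Gene names were available only for probes of the authors' processed table. In that table the largest value of a probe over the 6 arrays was never under 1.2 times the smallest, nor under 273, so the named probes are those that varied. All 21 probes passed the filter on dim probes. Ppif itself was lower in CypD knockout arrays, at 12.26 ± 0.086 against 13.63 ± 0.067 in wild-type arrays (SD, n = 3 each), a log2 fold change of -1.37 ± 0.066 (SE, adjusted p = 2.96e-09). The signal stayed bright in knockout arrays, and the place of this probe relative to the deletion was not examined here. Array medians were 226 to 229 in knockout and 223 to 251 in wild type, and arrays correlated at 0.9925 to 0.9945 within groups and at 0.9845 to 0.9855 between groups.

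Taking the brightest probe of each gene, 5 of the 10 genes rose in CypD knockout cells (Pcna, Gins2, Lig1, Pold1 and E2f1), 2 fell (Rpa2 and Mcm10) and 3 did not pass the test (Mcm2, Mcm6 and Rfc2). By the same rule 43.6% of all 7605 named genes were called, 21.8% in each direction. Of the 21 probes, 9 rose and 2 fell, while 10 did not pass. Among all tested probes 20.0% were called, 9.78% upward and 10.2% downward. Among the 10651 tested probes with a gene name 42.1% were called, 20.5% upward and 21.6% downward. The 21 probes had 52.4% called, 42.9% upward and 9.52% downward. The 10 genes were chosen with earlier results of these data known, and some of the 21 probes share a gene. No share given here therefore tests the list. Leaving out 1 array at a time gave 8 to 14 called probes. All 3 knockout arrays lay above all 3 wild-type arrays for 13 of the 21 probes and below them for 3, against 27.1% and 27.5% of named probes, or 54.7% not overlapping either way. The log2 fold change was above 0 for 17 of the 21 probes, with a median of 0.28, and 49.6% of all named probes lay above 0. All probes of 8 genes were above 0, and those of Rpa2 and Mcm10 were below. Except for 1 Mcm6 probe, called rises among the 21 were between 1.21-fold and 1.51-fold.

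**Figure D1:**
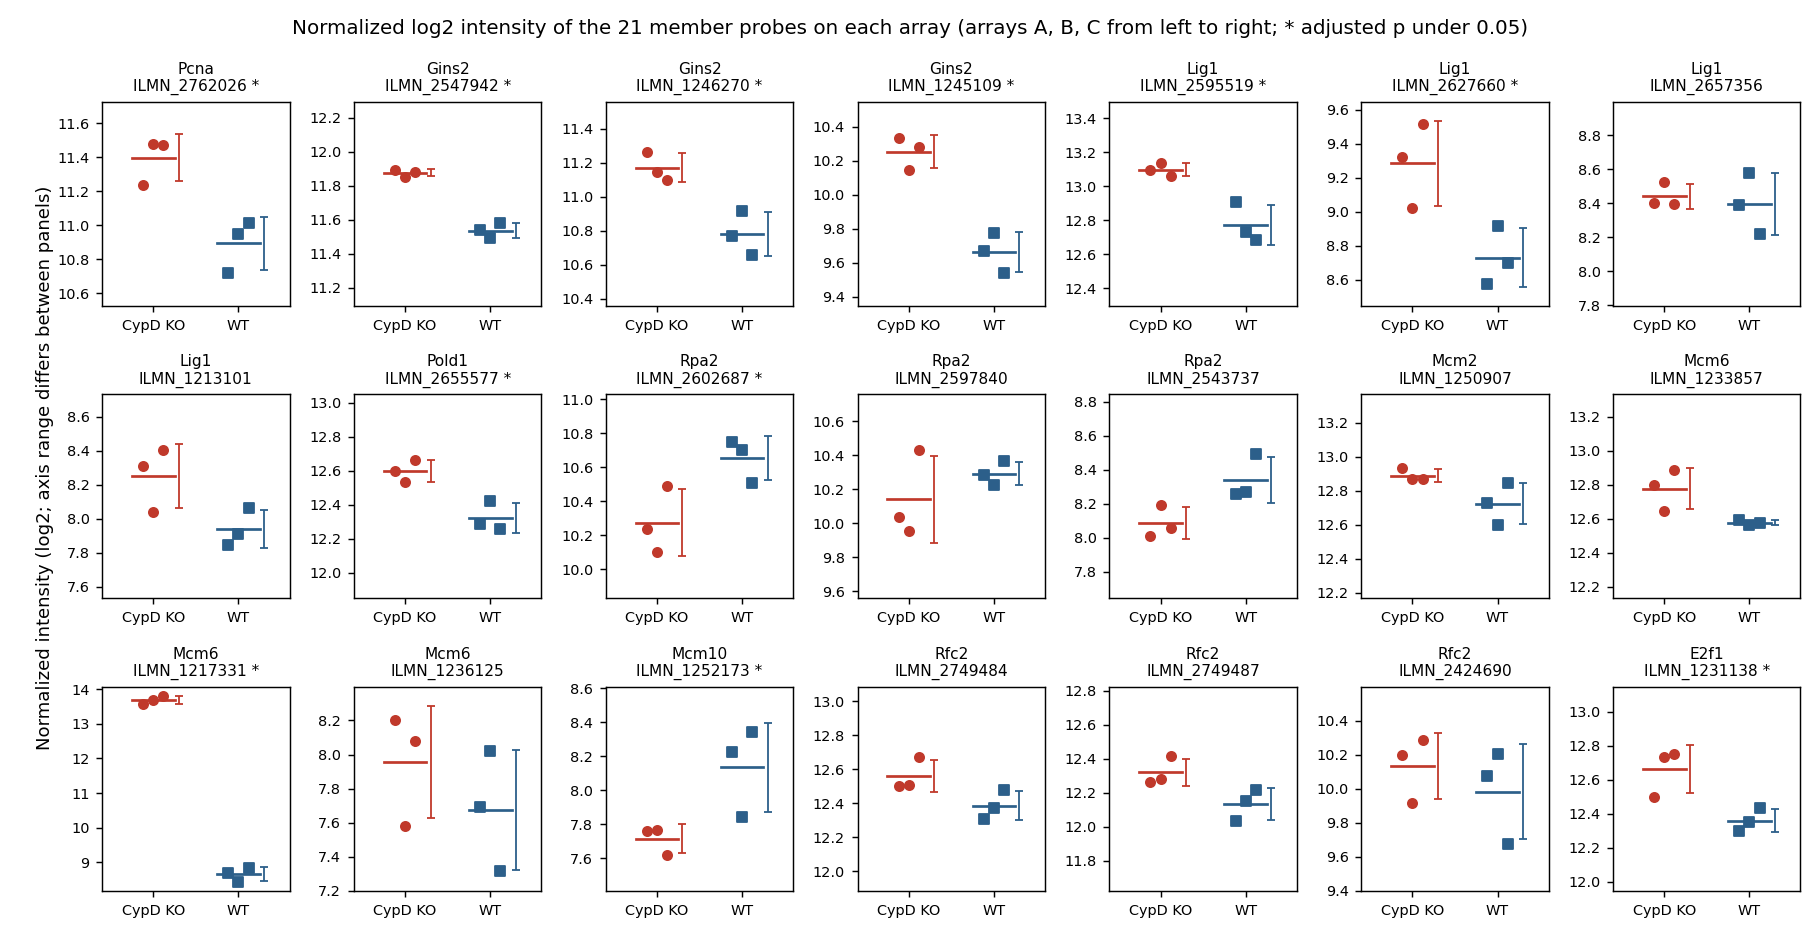
Normalized log2 intensity of each of the 21 probes (vertical axes, whose range differs between panels), with the 3 CypD knockout arrays as circles on the left and the 3 wild-type arrays as squares on the right. Horizontal lines are group means and bars are ± 1 SD; an asterisk marks an adjusted p under 0.05. For 13 probes all knockout arrays lie above all wild-type arrays, and Mcm6 probe ILMN_1217331 shows the widest separation.

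E2f1 encodes a transcription factor that activates many replication genes at entry into S phase. Its probe read 12.50, 12.74 and 12.75 in knockout arrays, against 12.30, 12.35 and 12.44 in wild-type arrays, and knockout array A came closest to the wild-type arrays. The log2 fold change was 0.30 ± 0.077 (adjusted p = 0.0124), or 1.23-fold. The call was lost without knockout B, knockout C or wild type A (adjusted p = 0.0712, 0.0679 and 0.0542) and without the intensity trend (adjusted p = 0.0544).

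Mcm2, a subunit of the MCM hexamer, had 12.93, 12.87 and 12.87 in knockout arrays, against 12.73, 12.60 and 12.84 in wild-type arrays. The groups did not overlap, but wild-type array C lay just below the knockout arrays. The log2 fold change of 0.16 ± 0.070 did not pass (adjusted p = 0.128), except without wild-type array C (0.22, adjusted p = 0.0282).

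Mcm6, another subunit of the hexamer, gave different answers on its 3 probes, which are all annotated to the same transcript. Probe ILMN_1217331 had deposited intensities of 11959, 12570 and 13878 in knockout arrays, against 549, 453 and 527 in wild-type arrays. After normalization it read 13.58, 13.68 and 13.80 in knockout arrays, against 8.69, 8.45 and 8.85 in wild-type arrays. The signal was thus bright on every knockout array and dim on every wild-type array, at the 97.8th percentile of all probes in knockout and the 74.8th in wild type. The log2 fold change was 5.03 ± 0.099 (SE, adjusted p = 7.18e-13), a measured 32.6-fold that ranged between 26.4-fold and 35.5-fold over the alternative settings. It was the 2nd largest rise of the 10651 named probes tested.

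The other Mcm6 probes did not show this separation. Probe ILMN_1233857 read 12.80, 12.65 and 12.89 in knockout arrays, against 12.59, 12.57 and 12.58 in wild-type arrays. Its knockout arrays were all higher but scattered more, and the log2 fold change of 0.20 ± 0.070 did not pass (adjusted p = 0.062). It passed without knockout array B (0.27, adjusted p = 0.0231), among probes above the 70th percentile of intensity (adjusted p = 0.046) and in the authors' processed table (0.20, adjusted p = 0.0475). The dim probe ILMN_1236125 read 8.20, 7.58 and 8.08 in knockout arrays, against 7.69, 8.02 and 7.31 in wild-type arrays. These overlapped, and the difference was 0.28 ± 0.18 (adjusted p = 0.343).

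The change on ILMN_1217331 exceeded those on ILMN_1233857 and ILMN_1236125 by 4.83 and 4.75 on the log2 scale, while these differences varied between arrays of a group by an SD of 0.16 and 0.47. An exact permutation test over the arrays, two-sided, gave p = 0.1 for both, the smallest that 3 against 3 arrays allow (0.3 after Benjamini-Hochberg adjustment over 18 probe pairs of 5 genes). Of these 18 pairs 6 reached this smallest p, including 2 pairs of Gins2 and 2 of Lig1, with differences of 0.20 to 0.51. Among 2267 named genes with more than 1 tested probe, the median gap between the highest and the lowest log2 fold change was 0.15, and the Mcm6 gap of 4.83 was the largest. Tipin, a fork protection factor that binds Timeless, came next at 3.86, with its 4 probes at 3.16, 0.44, 0.32 and -0.70, all called. Probe sequences were not used here, and what each Mcm6 probe binds was not tested.

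**Figure D2:**
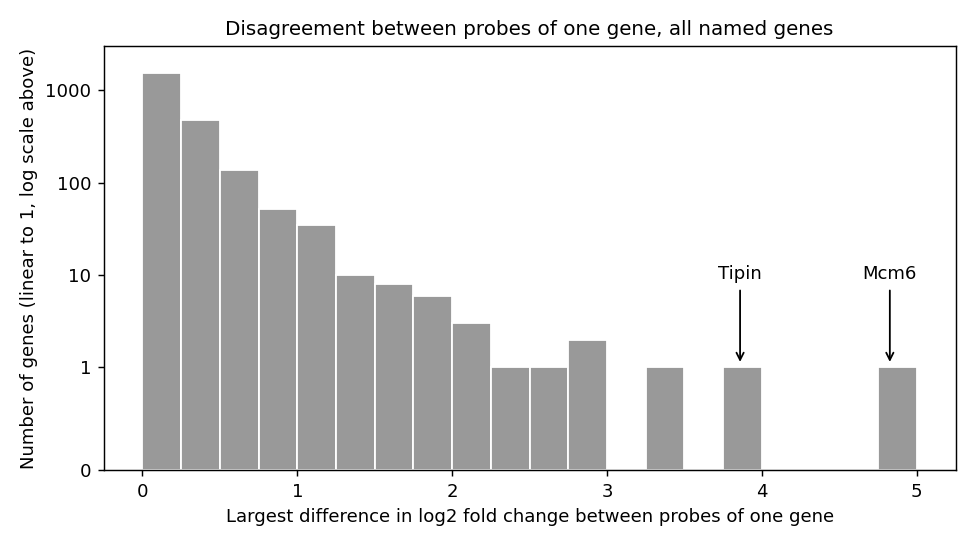
Number of named genes (vertical axis, linear to 1 and logarithmic above) by the largest difference in log2 fold change between probes of the gene (horizontal axis), over 2267 genes with more than 1 tested probe. Arrows mark Mcm6 at 4.83 and Tipin at 3.86, to the right of nearly all other genes, which lie mostly under 1.

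Gins2 encodes a subunit of the GINS complex, which joins Cdc45 and the MCM hexamer in the active helicase. Probe ILMN_2547942 read 11.89, 11.85 and 11.88 in knockout arrays, against 11.54, 11.49 and 11.58 in wild-type arrays, so that the groups were tight and clearly apart. Its log2 fold change was 0.34 ± 0.066 (adjusted p = 0.00189). Probe ILMN_1245109 read 10.33, 10.14 and 10.28 in knockout arrays, against 9.67, 9.77 and 9.54 in wild-type arrays, also without overlap. The probes ILMN_1246270 and ILMN_1245109 rose by 0.39 ± 0.085 (adjusted p = 0.00469) and 0.59 ± 0.090 (adjusted p = 0.000292). Gins2 was thus called by all 3 of its probes, under all 15 alternative settings.

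Mcm10, which binds the activated helicase and polymerase alpha at origin firing, was measured by 1 dim probe. The probe read 7.76, 7.77 and 7.62 in knockout arrays, against 8.22, 7.84 and 8.34 in wild-type arrays, and it fell by 0.42 ± 0.13 (adjusted p = 0.0316). Deposited intensities were 308, 303 and 286 in knockout arrays, against 424, 334 and 397 in wild-type arrays, not far above the array medians, and the files hold no detection p-value. The call was lost without knockout A, B or C or wild type A or C (adjusted p = 0.0618, 0.0701, 0.128, 0.115 and 0.0871).

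Rpa2, the middle subunit of the single-strand binding complex RPA, had log2 fold changes below 0 on all 3 of its probes. Probe ILMN_2602687 read 10.23, 10.10 and 10.49 in knockout arrays, against 10.75, 10.70 and 10.51 in wild-type arrays. The groups did not overlap but nearly met, at array C of each. This probe fell by 0.38 ± 0.10 on the log2 scale (adjusted p = 0.0196), and the call was lost without knockout A, knockout B, wild type A or wild type B (adjusted p = 0.0676, 0.108, 0.0903 and 0.0658). Neither ILMN_2597840, at -0.15 ± 0.11 (adjusted p = 0.43), nor ILMN_2543737, at -0.25 ± 0.10 (adjusted p = 0.113), passed the test.

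Pcna encodes the sliding clamp that tethers polymerases and many other proteins to the replicating DNA. Its probe read 11.24, 11.48 and 11.47 in knockout arrays A, B and C, against 10.72, 10.95 and 11.02 in wild-type arrays. The groups did not overlap, although array A was the lowest of each. The log2 fold change was 0.50 ± 0.095 (SE, adjusted p = 0.00158), or 1.42-fold, with a 95% confidence interval of 0.30 to 0.71. This call held in all 15 alternative settings, with values of 0.41 to 0.58.

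Rfc2, a small subunit of the clamp loader, did not pass the test on any of its 3 probes. Probe ILMN_2749484 read 12.50, 12.51 and 12.67 in knockout arrays, against 12.31, 12.37 and 12.48 in wild-type arrays. Probe ILMN_2749487 followed it closely over the arrays, and array C was the highest of each group on both. Their log2 fold changes were 0.17 ± 0.072 (adjusted p = 0.116) and 0.19 ± 0.072 (adjusted p = 0.0937), and both passed without wild-type array C (adjusted p = 0.0404 and 0.0403). ILMN_2749487 also passed with array weights (adjusted p = 0.0487). The dimmer probe ILMN_2424690 overlapped between groups, at 0.15 ± 0.13 (adjusted p = 0.523).

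Pold1 encodes the catalytic subunit of DNA polymerase delta. Its probe read 12.60, 12.54 and 12.66 in knockout arrays, against 12.29, 12.42 and 12.26 in wild-type arrays, with no overlap. The log2 fold change was 0.28 ± 0.069 (adjusted p = 0.0105), a call lost without knockout array C (adjusted p = 0.0572) and with the intensity trend left out of the model (adjusted p = 0.0503).

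Lig1 encodes DNA ligase 1, which joins Okazaki fragments. Its brightest probe, ILMN_2595519, read 13.10, 13.14 and 13.06 in knockout arrays, against 12.90, 12.73 and 12.68 in wild-type arrays. Every knockout array was above every wild-type array, and the log2 fold change was 0.32 ± 0.069 (adjusted p = 0.00356). Probe ILMN_2627660 rose by 0.55 ± 0.13 (adjusted p = 0.0065), with values of 9.32, 9.02 and 9.52 in knockout arrays and 8.58, 8.92 and 8.70 in wild-type arrays. The other two Lig1 probes overlapped between groups. Of these, ILMN_1213101 stood at 0.31 ± 0.11 on the log2 scale (adjusted p = 0.0751). This probe passed without knockout array B (adjusted p = 0.0306), without wild-type array C (adjusted p = 0.0317) and with array weights (adjusted p = 0.0422). The last, ILMN_2657356, had 0.05 ± 0.11 (adjusted p = 0.844), with a 95% confidence interval of -0.19 to 0.28.

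**Figure D3:**
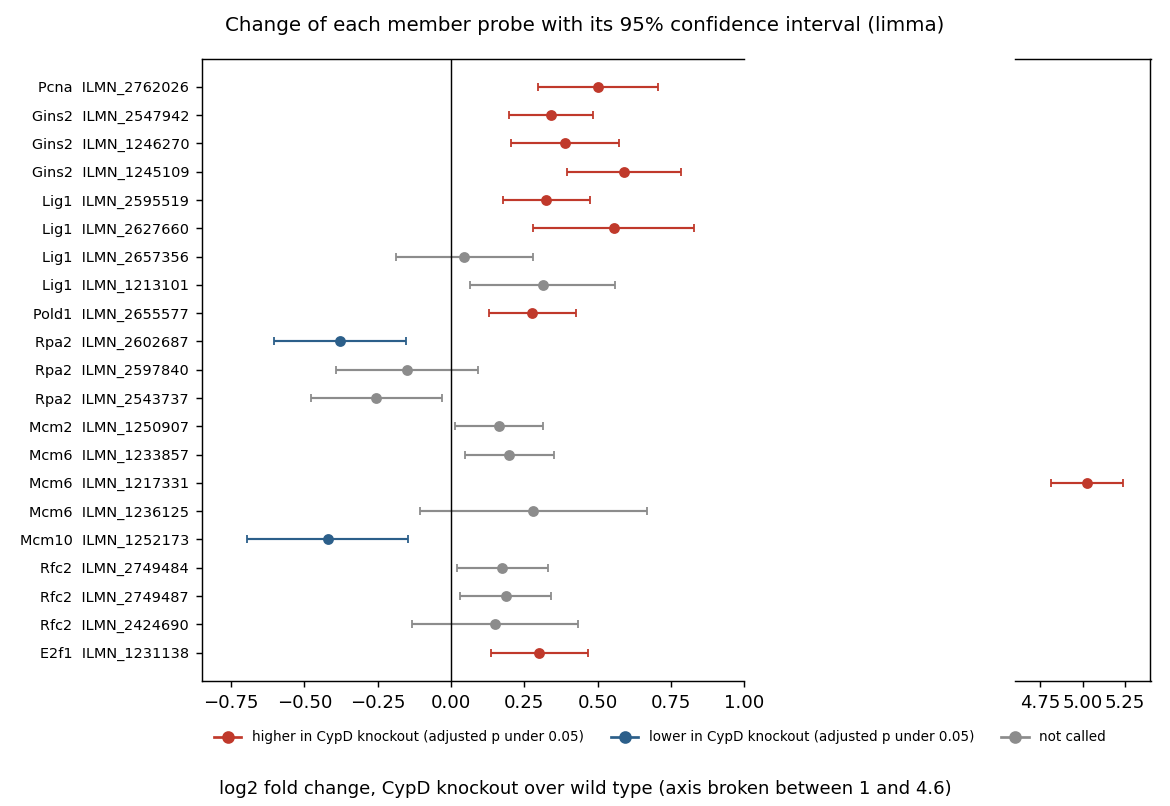
Log2 fold change of CypD knockout over wild type for each of the 21 probes (horizontal axis, broken between the main range and the Mcm6 probe), with 95% confidence intervals from limma. Red marks the 9 probes called higher, blue the 2 called lower and grey the 10 not called.

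The other genes of DNA replication, 79 in a written list, were mixed. With the brightest tested probe standing for each gene, 48 could be tested, and 10 rose, 6 fell and 32 did not pass. That is 33.3% called, beside 43.6% of all 7605 named genes (21.8% in each direction). The list's median log2 fold change was 0.05, against 0.01 over all named genes. The rises of lowest p were those of the E2F factor E2f5 (0.61 ± 0.061, adjusted p = 5.26e-06), the origin recognition subunit Orc6 (0.36 ± 0.056, adjusted p = 0.000311), the E2F repressor E2f6 (0.36 ± 0.061, adjusted p = 0.00069), Tipin (0.32 ± 0.056), the small RPA subunit Rpa3 (0.36 ± 0.068) and Pole4 (0.37 ± 0.073). The falls were those of Recql4, a helicase of replication initiation (-0.52 ± 0.085, adjusted p = 0.000526), Mtbp, which acts in origin firing (-0.36 ± 0.064), the primase subunit Prim2 (-0.34 ± 0.071), the E2F partner Tfdp2 (-0.34 ± 0.083), Pole3 (-0.30 ± 0.079) and Orc3 (-0.30 ± 0.085). The call of Pole3 was lost with 3 of the 6 arrays left out in turn, and that of Orc3 with 4. Dimmer Tfdp2 probes had -0.28 ± 0.096 (adjusted p = 0.0574) and -0.26 ± 0.10 (adjusted p = 0.108) and did not pass. Of the bright genes that did not pass, the large RPA subunit Rpa1 had -0.16 ± 0.057 (adjusted p = 0.0682) and passed under median scaling (-0.23, adjusted p = 0.0103), with array weights, with the replicate letter as a block and without wild-type array C. Tfdp1 had 0.22 ± 0.076 (adjusted p = 0.0583; 0.049 in the processed table), topoisomerase gene Top2a 0.15 ± 0.074, and Ssbp1, whose product binds single-stranded mitochondrial DNA, 0.15 ± 0.077.

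Partners of the 10 genes within their complexes were then set side by side, a choice made after the values had been seen. In RPA, Rpa2 fell and Rpa3 rose, and Rpa1 lay between them at -0.16. Among the clamp loader subunits, the large subunit Rfc1 rose by 0.33 ± 0.065 (adjusted p = 0.00231), whereas Rfc2, Rfc3, Rfc4 and Rfc5 stood at 0.17, 0.19, 0.03 and -0.12 on the log2 scale, none of them passing. Of polymerase delta, Pold1 rose, and Pold3 and Pold4 did not pass by their brightest probes, at 0.19 ± 0.077 and -0.18 ± 0.087. A dimmer Pold4 probe fell by 0.31 ± 0.092 (adjusted p = 0.0263). The histone-fold partners Pole3 and Pole4 of polymerase epsilon were called in opposite directions. Of the remaining MCM hexamer genes, Mcm5 had no named probe. Mcm3, Mcm4 and Mcm7 had 0.02 ± 0.11, -0.01 ± 0.20 and 0.07 ± 0.078, and none of these passed. The Mcm4 probe was dim, at the 57.9th percentile of all probes. In the E2F family E2f1, E2f5, E2f6 and E2f7 rose by their brightest probes, E2f7 by 0.33 ± 0.096 (adjusted p = 0.0265), a call lost with 4 of the 6 arrays left out in turn. A dimmer E2f7 probe overlapped between groups, at 0.06 ± 0.16 (adjusted p = 0.869). Of the dimmer E2f6 probes, 1 rose by 0.41 ± 0.092 (adjusted p = 0.0055) and 1 did not pass (0.19 ± 0.11, adjusted p = 0.294). E2f2 and E2f3 had -0.15 and -0.20 by their brightest probes and did not pass, while a second E2f3 probe fell by 0.30 ± 0.087 (adjusted p = 0.0236).

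**Figure D4:**
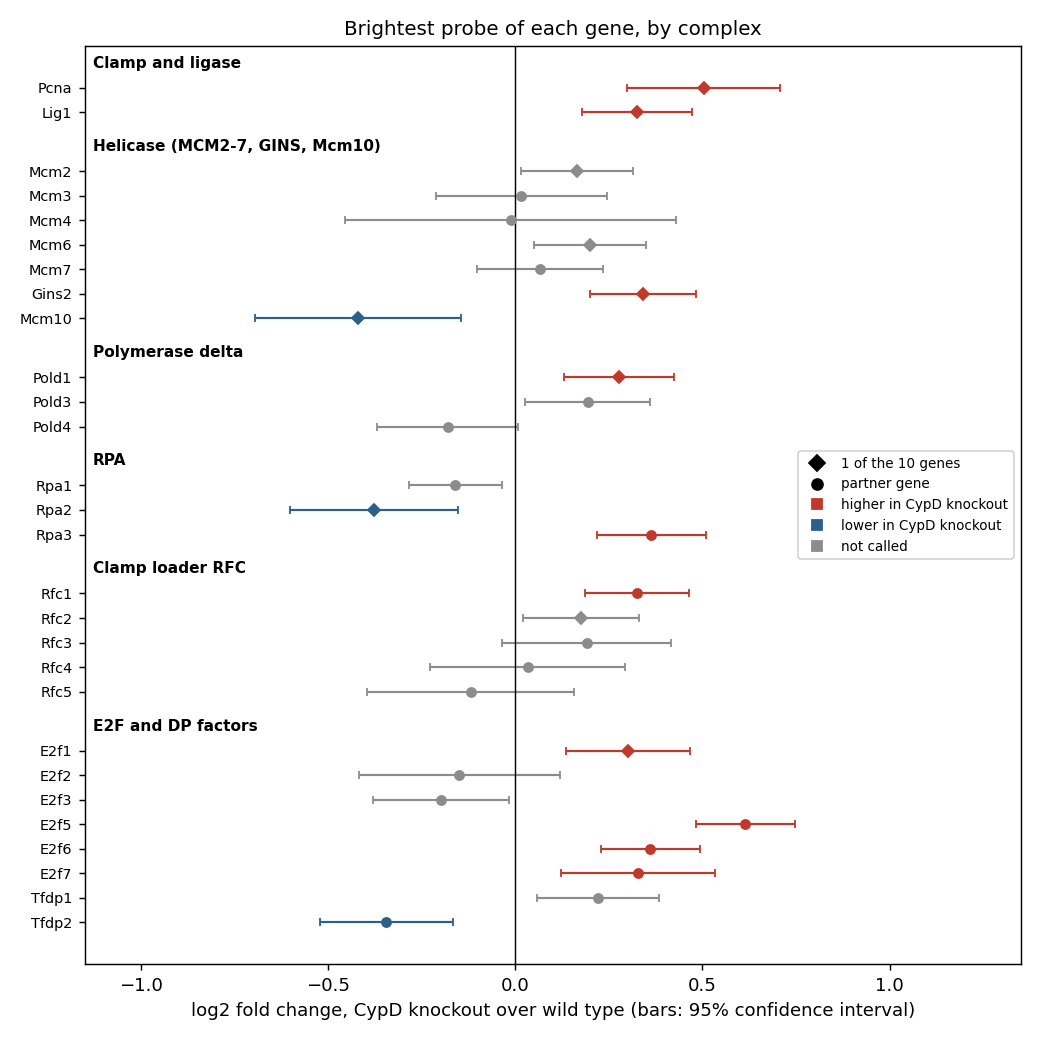
Log2 fold change of CypD knockout over wild type for the brightest tested probe of each gene (horizontal axis, bars are 95% confidence intervals), grouped by complex. Diamonds are the 10 genes, circles are partner genes, and colour gives the call. Rpa2 and Rpa3 lie on opposite sides of 0, and the Mcm6 value is that of probe ILMN_1233857.

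Of a list of deoxynucleotide enzymes, 13 were tested, each by its brightest probe. Among them 4 rose, 6 fell and 3 did not pass (76.9% called, beside the 43.6% of all named genes). Their median log2 fold change was -0.17. The rises were those of the deoxyguanosine kinase Dguok (0.47 ± 0.078), the ribonucleotide reductase subunits Rrm1 (0.27 ± 0.054) and Rrm2 (0.21 ± 0.066), and the mitochondrial thymidine kinase Tk2 (0.31 ± 0.091). The falls were those of Shmt1 (-0.56 ± 0.069), Dut (-0.50 ± 0.078), Rrm2b (-0.47 ± 0.087), the dNTP hydrolase Samhd1 (-0.36 ± 0.083), Cmpk1 (-0.30 ± 0.087) and Dtymk (-0.23 ± 0.074). Dimmer probes of these genes disagreed in part. That of Shmt1 lay above 0, at 0.10 ± 0.10, and did not pass (adjusted p = 0.579). Those of Samhd1 (-0.14 ± 0.11 and -0.20 ± 0.12), Rrm1 (0.16 ± 0.070) and Rrm2 (0.17 ± 0.13) did not pass either. The dimmer Dguok probe rose by 0.38 ± 0.11 (adjusted p = 0.0236). The call of Rrm2 was lost with each of the 6 arrays left out and under median scaling (0.15, adjusted p = 0.168). Those of Tk2, Cmpk1 and Dtymk were lost with 3, 4 and 5 of the arrays left out in turn. The calls of Rrm2 and Dtymk were also lost with the replicate letter as a block (adjusted p = 0.0662 and 0.0685) and without the filter on dim probes (adjusted p = 0.0634 and 0.0703). Leaving out the intensity trend ended all 4 of these calls (adjusted p = 0.116 for Rrm2, 0.0669 for Tk2, 0.0856 for Cmpk1 and 0.0956 for Dtymk). Tyms, Tk1 and Dck did not pass.

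Fibroblast markers ranged from bright to dim. Col1a1 lay at the 97.0th percentile of all probes in knockout and the 98.3rd in wild type. Vim, by its only named probe, lay at the 64.6th in knockout and the 68.0th in wild type. Dcn lay at the 43.9th in knockout and the 64.8th in wild type. By their brightest probes, 3 of 10 tested fibroblast markers rose (Col3a1, Pdgfra and Pdgfrb), 5 fell (Col1a1, Col1a2, Dcn, S100a4 and Sparc) and Fn1 and Vim did not pass. A less bright Fn1 probe rose by 0.39 ± 0.091 (adjusted p = 0.007). The summed linear intensity of the brightest probes of the 10 markers was 40830 to 43499 in knockout arrays, against 50516 to 51619 in wild-type arrays. For other cell types few markers had a named probe: 3 of 8 neural, 3 of 8 epithelial, 2 of 8 leukocyte, 1 of 8 endothelial, 2 of 7 muscle and 1 of 4 erythroid. The neural markers Stmn2, Nes and Mbp all fell, with a summed intensity of 1764 to 1870 in knockout arrays, against 5581 to 6250 in wild-type arrays. Summed epithelial markers were 1822 to 1935 in knockout, against 1372 to 1425 in wild type. Of these, Spint1 rose by 0.78 ± 0.082, Krt19 fell by 0.35 ± 0.097 (adjusted p = 0.0198) and Cdh1 did not pass (-0.09 ± 0.13). The 1 endothelial marker, Eng, rose by 0.52 ± 0.12. Leukocyte sums were 879 to 902 in knockout and 864 to 1066 in wild type. The erythroid marker read 162 to 186 in knockout and 147 to 196 in wild type, so that the ranges of both overlapped. Muscle sums also overlapped, at 584 to 635 in knockout and 577 to 705 in wild type, but of the 2 genes Acta1 fell by 0.79 ± 0.12 (adjusted p = 0.00028), at the 42.5th percentile in knockout and the 66.7th in wild type, and Myl4 did not pass (0.16 ± 0.11). The part of these markers in the changes of the fork genes was not tested.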

How the data were processed

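RNA of 6 mouse embryonic fibroblast samples, 3 CypD knockout and 3 wild type, was hybridised to 1-colour Illumina bead arrays. The authors deposited linear probe intensities, 1 table per array with 45281 probes, and 1 table of processed intensities for 12534 probes. The submitters' processing notes name BeadStudio 3.0 and, in the sources used here, no further step. The files hold no detection p-value, control probe or scan date, so background signal and slides could not be examined.

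Intensities were background-corrected (normexp, offset 50), then log2-transformed and quantile-normalized with limma 3.58.1 under R 4.3.3. Probes with a mean above the 40th percentile over all arrays were kept. Groups were compared with lmFit and eBayes (intensity trend), with two-sided p-values adjusted by Benjamini-Hochberg over the 27168 probes kept. The number of arrays limits the precision, and adding an offset makes fold changes smaller where signal is dim. The procedure was also run on simulated data, in which far fewer probes changed than were called here. That run does not measure the error of these calls. Probe names come from GEO's platform annotation, with symbols updated through Entrez identifiers in RefSeq (GRCm38.p6). Promoter windows are RefSeq's.

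The members and lists were chosen with earlier results of these data known. Named genes are the 10 members on every probe, Ppif and, of each of 2 lists, up to 6 called genes of lowest p per direction and up to 4 bright ones that did not pass; complex partners were added after the values had been seen. Alternatives were other background corrections, scaling, filters, no trend, array weights, the processed table, a replicate block and each array left out.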

Additional observations from a re-analysis of the deposited data

How the results depend on the processing

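Over 15 alternative settings the count of called probes among the 21 ranged between 8 and 14, against 11 as reported, and called probes overall ranged between 4079 and 5903, against 5423. Called genes among the other replication genes ranged between 13 and 19, against 16 as reported, and came to 20 where any tested probe sufficed; 12 of the 16 were called in every alternative. Of 313 values of the 21 probes under these settings 288 kept their call or lack of one, 15 lost a call, 10 gained one and 0 reversed a call. Values that were not called could change sign. Lig1 probe ILMN_2657356, for example, had 0.05 as reported and -0.04 without wild-type array C. Of the losses 13 came with 1 array left out and 2 without the intensity trend, and their cause was not tested. Leaving out 1 array also gained 6 calls. Without background correction the log2 fold change of Mcm6 probe ILMN_1233857 minus that of ILMN_1217331 was -4.53, against -4.83 with it. With the replicate letter as a block, 11 of the 21 probes and 5273 probes in all were called. Same-lettered arrays of the groups deviated from their group means with correlations of 0.10, -0.090 and 0.075, and differently lettered arrays with correlations of -0.209 to 0.15. With so few arrays these values cannot decide whether the letters pair the arrays, and the main fit left them unpaired. Dim probes, such as those of Mcm10 and 2 of the Lig1 probes, could not be set against a measured background.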
